A study of Mus musculus with 6 samples.

Results

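The genes described here encode 9 transcription factors of the red cell and platelet lineages: Gata1, Gata2, Klf1, Gfi1b, Nfe2, Tal1, Lyl1, Lmo2 and Zfpm1. They were taken by symbol from a deposited expression table, in which all 9 had a row among 23446 rows with gene symbols. The RNA is from mouse embryos of strain C57BL/6, taken at E11.5, and from their aorta-gonad-mesonephros (AGM), the tissue around the dorsal aorta in which blood stem cells first form. Embryos were tph2+/+, tph2+/- or tph2-/-, with 2 libraries per genotype and 6 in all, and the labels name no further allele or treatment in any group. Tph2 encodes a tryptophan hydroxylase of serotonin synthesis, and the labels state neither the disrupted part of the gene nor whether a library held 1 embryo or several. Littermates were used, but no label says which libraries shared a litter, so a p-value reflects only the spread between these libraries, which may be technical. Levels are given as RPKM, which divides reads by gene length and by library depth.

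GATA1 and GATA2 are zinc finger proteins that bind the same DNA motif. During red cell maturation GATA1 replaces GATA2 on shared sites, and Gata2 itself is turned down. TAL1 and its relative LYL1 are basic helix-loop-helix proteins that bind E-box motifs with E proteins, and LMO2 bridges them to LDB1 and to GATA factors. FOG1, the product of Zfpm1, binds GATA1 without touching DNA. KLF1 drives globin and membrane genes of red cells, GFI1B is a repressor of both lineages, and NFE2 is the factor of late platelet formation.

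Every library held RNA of tissue that an AGM dissection contains. Wt1, a gene of coelomic epithelium, stood between 13.0 and 23.1 RPKM and Osr1 of intermediate mesoderm between 25.0 and 33.3. The endothelial cadherin gene Cdh5 stood between 25.3 and 29.7, while the nephric duct gene Pax2 was low at 0.388 to 1.54. Wt1 had 22.8 and 23.1 RPKM in tph2+/+, against 14.0 and 13.0 in tph2+/- and 14.7 and 16.1 in tph2-/-. The gonad gene Nr5a1 had 3.39 and 3.46, 1.57 and 2.48, and 2.13 and 1.86 in the same order. Cdh5 was also higher in both tph2+/+ libraries than in every mutant library, while Osr1 and Pax2 did not separate in this way. The part of such tissue in the change of the 9 genes was not tested. The estimated depth was 38.8 to 46.0 M reads per library, so values of the 9 genes rested on 67.4 to 945 reads per kilobase. Tph2 lay at 0.0280 to 0.0764 RPKM with overlapping genotypes and did not check the labels. Both tph2+/+ libraries and tph2+/- replicate 1 carried Xist, the RNA of the inactive X, at 76.3 to 101 RPKM, and the other 3 libraries had at most 0.114 RPKM and 8.14 to 9.82 RPKM of Y-linked Ddx3y. Genotype and sex therefore cannot be told apart between tph2-/- and tph2+/+.

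Promoter sequence is shown for the 3 genes with the largest rise in tph2-/- (Gata1, Klf1 and Gfi1b) and for Gata2, which did not move with them. RefSeq windows (GRCm38.p6) of 250 bases before to 50 bases after a start site were on hand for 7 of the 9 genes, 9 windows in all, without Nfe2 and Lmo2. They were searched on both strands for a GATA motif (AGATAA or its variant TGATAA or the forms AGATAG or else TGATAG), the E-box CAGATG, a KLF motif (CCNCNCCC) and an NF-E2 motif (TGAGTCA). Capitals mark every match, and no matches of different motifs overlapped in the windows printed.
Gata1, chrX:7967861-7968160, minus strand: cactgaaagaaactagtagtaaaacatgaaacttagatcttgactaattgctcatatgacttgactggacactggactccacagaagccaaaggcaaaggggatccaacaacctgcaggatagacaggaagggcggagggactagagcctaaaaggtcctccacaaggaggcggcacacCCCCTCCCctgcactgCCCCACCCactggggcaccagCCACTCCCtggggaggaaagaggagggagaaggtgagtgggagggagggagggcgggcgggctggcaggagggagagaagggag
Klf1, chr8:84901732-84902031, plus strand: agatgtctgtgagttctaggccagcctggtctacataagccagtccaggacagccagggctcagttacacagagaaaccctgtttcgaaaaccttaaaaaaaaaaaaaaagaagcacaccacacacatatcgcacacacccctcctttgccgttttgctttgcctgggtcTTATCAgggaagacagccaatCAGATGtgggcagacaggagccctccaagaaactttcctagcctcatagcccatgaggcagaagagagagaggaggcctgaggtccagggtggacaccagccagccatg
Gfi1b, chr2:28621933-28622232, minus strand: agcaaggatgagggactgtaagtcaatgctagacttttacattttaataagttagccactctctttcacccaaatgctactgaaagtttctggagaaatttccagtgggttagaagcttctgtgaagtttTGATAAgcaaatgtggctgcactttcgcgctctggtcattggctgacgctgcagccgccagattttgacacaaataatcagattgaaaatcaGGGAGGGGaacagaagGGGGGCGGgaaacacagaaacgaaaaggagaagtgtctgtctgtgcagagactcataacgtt
Gata2, chr6:88193641-88193940, plus strand: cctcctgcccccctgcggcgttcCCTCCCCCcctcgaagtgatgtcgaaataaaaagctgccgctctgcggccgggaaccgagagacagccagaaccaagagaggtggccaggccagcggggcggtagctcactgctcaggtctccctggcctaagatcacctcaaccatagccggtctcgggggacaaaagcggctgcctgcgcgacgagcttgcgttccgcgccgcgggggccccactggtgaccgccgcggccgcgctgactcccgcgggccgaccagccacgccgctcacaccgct
The Gata1 window held 3 KLF matches, among them CCCCACCC at position -55 from the start site, and no GATA match. The Klf1 window held the reverse of a GATA motif at -80 and the E-box at -59. Gfi1b had TGATAA at -120 and KLF matches at -28 and -12, and the Gata2 window printed had a single KLF match at -227. A second Gata2 window, at chr6:88198414-88198713, held 6 KLF matches and is not printed. Those from -202 to -198 overlapped within a single run of G, and the remaining match lay at -76. The GATA motif was found in 3 of the 9 windows and in 29.8% of all 32851 windows, the E-box in 2 and in 17.2%, and the KLF motif in 7 and in 49.5%. NF-E2 was found in 0 of 9 and in 5.2% of all windows. These matches describe the letters only.

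In tph2+/+ the 9 genes were expressed at low to moderate levels, from 13.3 ± 0.825 RPKM (SD, n = 2, as for all means below) for Zfpm1 down to 1.77 ± 0.37 for Gfi1b. The order of mean levels in between was Lmo2, Klf1, Tal1, Gata2, Nfe2, Lyl1 and Gata1. The libraries of Lmo2 and Klf1 overlapped, as did those of Nfe2 and Lyl1, while the other neighbours stood apart. Both mutant genotypes had a different order, led by Klf1, Zfpm1 and Lmo2, then Tal1, Nfe2, Gata1 and Lyl1, with Gata2 and Gfi1b last. Libraries of Zfpm1 and Lmo2, of Nfe2 and Gata1, and of Gata2 and Gfi1b overlapped in tph2+/- and in tph2-/-. In tph2+/- those of Klf1 and Zfpm1 and of Tal1 and Nfe2 overlapped as well. Gata2 thus went from position 5 to position 8 among the 9 genes, and Klf1 from 3 to 1.

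**Figure D1:**
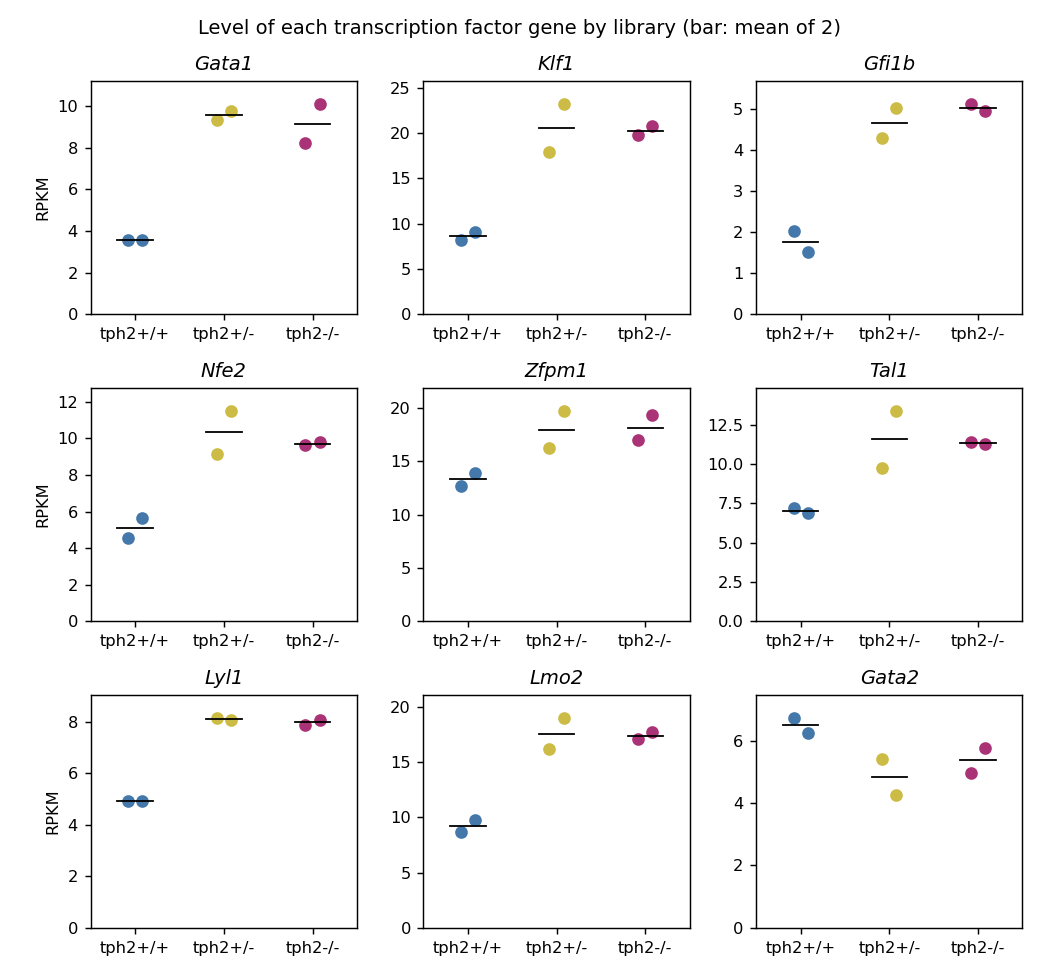
RPKM (vertical axes, from 0) of the 9 genes in each library, with points for the 2 libraries of a genotype and a bar for their mean. The tph2+/+ libraries lie below all 4 mutant libraries for every gene except Gata2, where they lie above them.

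In all, 8 of the 9 genes rose in tph2-/- against tph2+/+ and in tph2+/- against tph2+/+, and Gata2 passed in neither. The test was limma on log2(RPKM + 1) with the spread shared by all 6 libraries, a scale that understates the change of low genes, and p-values were adjusted by Benjamini-Hochberg over 12869 genes that averaged 1 RPKM or more. All 9 genes passed that filter. Among all tested genes 5.84% were called higher and 3.81% lower in tph2-/-, and 4.13% and 1.95% in tph2+/-. The median log2 fold change of the 9 genes was 0.82 in tph2-/- and 0.86 in tph2+/-, against 0.03 and 0.02 over all tested genes. In bulk RNA, more cells of a type and more RNA per cell cannot be told apart. Neither mutant genotype overlapped tph2+/+ for any of the 9 genes, with 8 higher and 1 lower in each mutant genotype. Separation of this kind was common, at 35.7% higher and 24.2% lower over all genes in tph2-/- and 32.3% and 19.8% in tph2+/-. The comparisons share the tph2+/+ libraries. Scaling moved the balance of calls over all genes, from 751 higher and 490 lower in tph2-/- to 548 and 667 with quantile normalization and 620 and 640 with median ratio scaling, and from 531 and 251 in tph2+/- to 408 and 370 and 455 and 325.

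Gata1 (chromosome X, 7959260 to 7978071, minus strand, GRCm38), the master factor of red cell and megakaryocyte maturation, had 3.56 and 3.58 RPKM in the tph2+/+ libraries, 9.34 and 9.80 in tph2+/-, then 8.23 and 10.1 in tph2-/-. All 4 mutant libraries thus stood well above both tph2+/+ libraries. The log2 fold change was 1.15 ± 0.0886 (SE) in tph2-/- (limma adjusted p = 0.000119) and 1.21 ± 0.0886 in tph2+/- (0.000112).

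Klf1 (chromosome 8, 84901928 to 84905291, plus strand), the red cell Krüppel-like factor, had 8.18 and 9.11 RPKM in tph2+/+, against 17.9 and 23.2 in the tph2+/- libraries and 19.8 and 20.8 in the tph2-/- libraries. The tph2+/- libraries spread wider than the others and replicate 2, the one with Y-linked RNA, was the highest of all 6. Klf1 rose by 1.14 ± 0.11 in tph2-/- (limma adjusted p = 0.000686) and by 1.15 ± 0.11 in tph2+/- (0.000737). Its ratio to Gata1 within a library was 2.30 and 2.55 in tph2+/+, against 1.91 and 2.36 in the tph2+/- libraries and 2.40 and 2.06 in the tph2-/- libraries. Those ratios overlapped between genotypes.

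Gfi1b (chromosome 2, 28609450 to 28621982, minus strand) was the lowest of the 9 genes in every genotype mean, with 2.03 and 1.51 RPKM in tph2+/+, against 4.28 and 5.03 in the tph2+/- libraries and 5.11 and 4.95 in the tph2-/- libraries. Its ratio of mean RPKM to tph2+/+ was 2.85 in tph2-/-, larger than the 2.57 of Gata1 and the 2.34 of Klf1, whereas on the log2(RPKM + 1) scale the 3 genes were close together. Gfi1b rose by 1.13 ± 0.108 in tph2-/- (limma adjusted p = 0.000418) and by 1.03 ± 0.108 in tph2+/- (0.000731).

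Nfe2 (chromosome 15, 103248212 to 103258403, minus strand), the large subunit gene of NF-E2, had 4.58 and 5.64 RPKM in tph2+/+, against 9.17 and 11.49 in the tph2+/- libraries and 9.62 and 9.80 in the tph2-/- libraries. It rose by 0.82 ± 0.111 in tph2-/- (limma adjusted p = 0.0029) and by 0.89 ± 0.111 in tph2+/- (0.00211). Without tph2-/- replicate 1 the tph2-/- change was 0.83 with an adjusted p of 0.0605. The genes of its small MAF partners, which form the DNA-binding pair with NFE2, are among the partners described below.

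Zfpm1 (chromosome 8, 122282141 to 122337251, plus strand), the FOG1 gene, had 12.7 and 13.9 RPKM in tph2+/+, against 16.2 and 19.7 in the tph2+/- libraries and 17.0 and 19.4 in the tph2-/- libraries. It was the most abundant of the 9 in tph2+/+ and had the smallest rise, 0.42 ± 0.0977 in tph2-/- (limma adjusted p = 0.0314) and 0.40 ± 0.0977 in tph2+/- (0.048). Both calls were close to the threshold. In tph2-/- leaving out tph2+/+ replicate 1 or 2 gave adjusted p-values of 0.164 and 0.1, and leaving out tph2-/- replicate 1 or 2 gave 0.0847 and 0.128. In tph2+/- the values were 0.265 and 0.128 without tph2+/+ replicate 1 or 2, 0.177 without tph2+/- replicate 2, and 0.0728 and 0.0722 without tph2-/- replicate 1 or 2, and quantile normalization gave 0.0607.

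**Figure D2:**
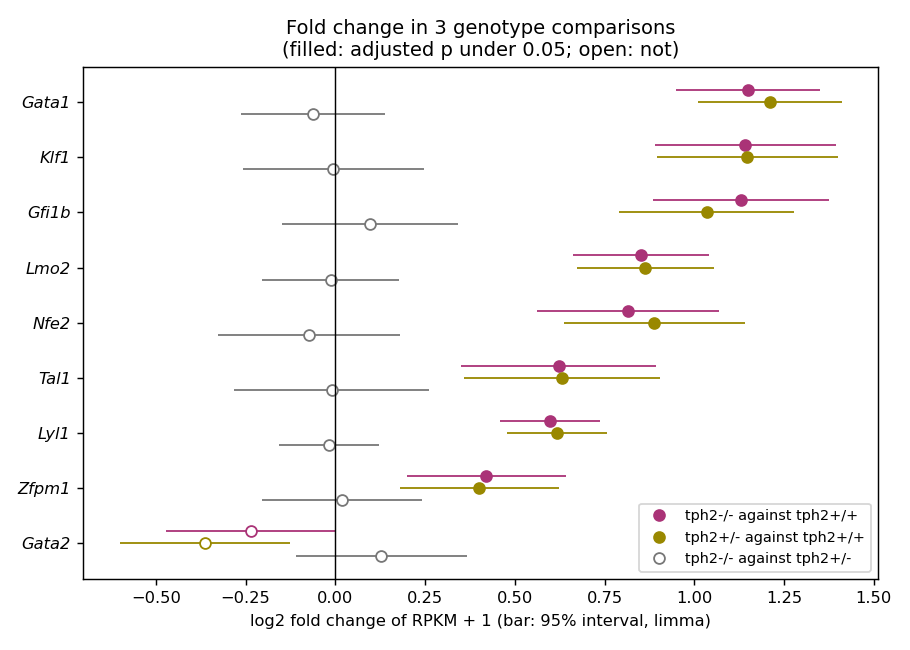
Log2 fold change of RPKM + 1 (horizontal axis) of each gene in 3 genotype comparisons, with the 95% interval from limma. Filled points passed an adjusted p of 0.05: 8 genes against tph2+/+ in each mutant genotype, and none between the mutant genotypes.

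Tal1 (chromosome 4, 115056426 to 115071755, plus strand), required for all blood formation, had 7.19 and 6.85 RPKM in tph2+/+, against 9.75 and 13.4 in the tph2+/- libraries and 11.4 and 11.3 in the tph2-/- libraries. It rose by 0.62 ± 0.119 in tph2-/- (limma adjusted p = 0.0166) and by 0.63 ± 0.119 in tph2+/- (0.0183). Without tph2+/+ replicate 1 or 2 the adjusted p was 0.0923 and 0.146 in tph2-/-, and 0.12 and 0.16 in tph2+/-. Without tph2-/- replicate 1 or 2 it was 0.154 and 0.0878 in tph2-/-, and 0.0754 and 0.0746 in tph2+/-. The wide spread of the tph2+/- libraries enters the error of both comparisons: without tph2+/- replicate 1 or 2 the SE in tph2-/- fell from 0.119 to 0.0612 or 0.0617.

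Lyl1 (chromosome 8, 84701457 to 84704715, plus strand), the close relative of Tal1, had 4.93 and 4.94 RPKM in tph2+/+, against 8.14 and 8.05 in the tph2+/- libraries and 7.88 and 8.08 in the tph2-/- libraries. It had the smallest SE of the 9 genes, and a rise of 0.60 ± 0.0618 in tph2-/- had a limma adjusted p of 0.000626 and one of 0.62 ± 0.0618 in tph2+/- had 0.000574. The ratio of Tal1 to Lyl1 was 1.46 and 1.39 in tph2+/+, against 1.20 and 1.66 in the tph2+/- libraries and 1.44 and 1.40 in the tph2-/- libraries. The tph2+/- ratios enclosed those of both other genotypes. An exon of Lyl1 shares 4 bases with Nfix on the opposite strand, in libraries whose kit does not mark strand.

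Lmo2 (chromosome 2, 103957986 to 103981878, plus strand), the bridging LIM protein, had 8.65 and 9.73 RPKM in tph2+/+, against 16.2 and 19.0 in the tph2+/- libraries and 17.0 and 17.7 in the tph2-/- libraries. The rise was 0.85 ± 0.084 in tph2-/- and 0.86 ± 0.084 in tph2+/- (limma adjusted p = 0.000511 in each). Lmo2 therefore changed more than Tal1 or Lyl1 in the point estimates of both comparisons, a difference that was not tested.

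Gata2 (chromosome 6, 88193891 to 88207032, plus strand), the GATA factor of stem and progenitor cells that endothelium and neural cells also express, ran the other way. It had 6.73 and 6.26 RPKM in tph2+/+, against 5.42 and 4.27 in the tph2+/- libraries and 4.97 and 5.78 in the tph2-/- libraries. Both tph2+/+ libraries were higher than all 4 mutant libraries. The log2 fold change was -0.24 ± 0.105 in tph2-/- (limma adjusted p = 0.19, 95% interval -0.472 to 0.002) and -0.36 ± 0.105 in tph2+/- (0.0833, -0.601 to -0.126), and neither passed. Without tph2+/- replicate 1 the tph2+/- value was -0.51 with an adjusted p of 0.0201. In tph2-/- its sign depended on the Y-linked term given below.

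Gata1 and Gata2 changed places in level between genotypes. Gata1 stood below Gata2 in tph2+/+, with ratios of 0.529 and 0.571, and above it in every mutant library, at 1.72 and 2.29 for tph2+/- and 1.66 and 1.75 for tph2-/-. The mean log2 ratio was -0.86 ± 0.0794 in tph2+/+, 0.99 ± 0.292 in tph2+/- and 0.77 ± 0.0545 in tph2-/-. The difference from tph2+/+ was 1.85 in tph2+/- and 1.63 in tph2-/-. A factor that scales a whole library leaves this ratio unchanged, while quantile normalization can change it. The ratio also compares genes of different length models and can shift with any tissue that expresses Gata2 outside blood.

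**Figure D3:**
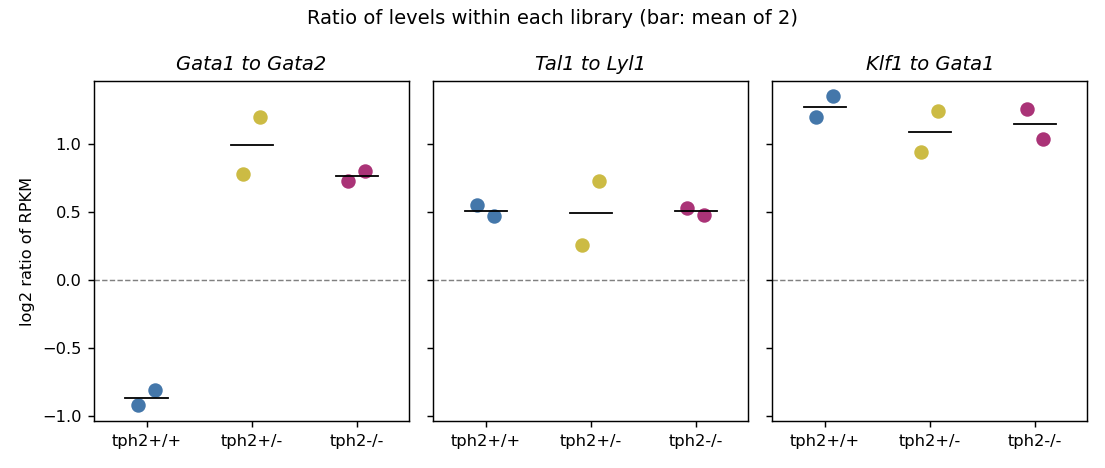
Log2 ratio of RPKM (vertical axis) between pairs of the 9 genes in each library, with a bar for the mean of 2. Gata1 to Gata2 is below 0 in tph2+/+ and above 0 in the 4 mutant libraries, while the ratios Tal1 to Lyl1 and Klf1 to Gata1 overlap between genotypes.

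Between the mutant genotypes none of the 9 genes passed in either direction by limma, and none had an unadjusted p under 0.05. Over all tested genes 0.746% were called higher and 0.544% lower in tph2-/- against tph2+/-, and 13.1% had an unadjusted p under 0.05. Libraries of the mutant genotypes overlapped for all 9 genes, where 21.4% of all genes were separate and higher and 21.7% separate and lower. The log2 fold changes ran from -0.07 for Nfe2 to 0.13 for Gata2. The 95% interval was narrowest for Lyl1, -0.158 to 0.121, and widest for Tal1, -0.283 to 0.262, so the test does not show that the mutant genotypes were alike. Signs of these small differences changed between alternatives for 8 of the 9 genes.

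Sex markers moved with part of these differences. When Y-linked expression was added to the fit, 5 of 9 genes passed as higher in tph2-/- against tph2+/+ (1.52% of all genes), namely Gata1 at 1.10 ± 0.162 (limma adjusted p = 0.0123), Klf1 at 0.78 (0.0167), Gfi1b at 0.93 (0.0338), Lyl1 at 0.62 (0.0285) and Lmo2 at 0.63 (0.0395). Nfe2 was at 0.51 (0.153), Tal1 at 0.19 (0.437), Zfpm1 at 0.16 (0.624) and Gata2 at 0.07 (0.836) and did not pass. In tph2+/- against tph2+/+ the same term left 7 of 9 genes higher (2.89% of all genes), with Zfpm1 at 0.27 (0.191) and Gata2 at -0.21 (0.31) not passing. This fit reads the Y-linked term from the 2 tph2+/- libraries alone, so it also takes up any other difference between them. With tph2+/- replicate 2 left out, the comparison of tph2+/- with tph2+/+ held only libraries with Xist, though the spread was still estimated with both tph2-/- libraries. There 7 of 9 genes were higher (3.05% of all genes), with Gata1 at 1.18 (0.000583), Klf1 at 0.97 (0.000361) and Tal1 at 0.42 (0.0155). Zfpm1, at 0.27 (0.177), did not pass there. A single tph2+/- library entered and was assumed to vary like the other groups.

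No partner gene of these factors passed the test. Of 19 genes for proteins that act in the same complexes, 0 passed in tph2-/- or tph2+/- against tph2+/+ by limma, with 0 and 3 at an unadjusted p under 0.05 (26.8% and 20.2% of all tested genes) and medians of -0.08 and 0.04. Ldb1, the core of the LMO2 complex, had 92.3 and 96.2 RPKM in tph2+/+, against 97.2 and 97.5 in the tph2+/- libraries and 86.1 and 91.8 in the tph2-/- libraries (adjusted p = 0.36 in tph2-/- against tph2+/+). Tcf3, which encodes the E protein partners of TAL1 and LYL1, had 97.7 and 105, 102.6 and 95.9, and 83.8 and 96.9 RPKM in the same order (0.2). Both genes are expressed far above the 9 factors in this tissue. Cbfa2t3, the ETO2 corepressor gene, was low, at 1.64 and 1.72 RPKM in tph2+/+ and 1.53 and 1.75 in tph2-/- (0.904).

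Relatives of the 9 factors went in several directions. Of 18 listed relatives 14 were tested, and in tph2-/- against tph2+/+ Nhlh1 rose and Gata3 and Gata6 fell. In tph2+/- against tph2+/+ Gata3 and Gata6 fell and none rose. Gata3, a GATA factor of sympathetic, kidney duct and neural cells, had 3.79 and 4.22 RPKM in tph2+/+, 2.30 and 2.17 in tph2+/-, then 2.22 and 2.59 in tph2-/-. Its log2 fold change was -0.56 ± 0.0924 in tph2-/- (limma adjusted p = 0.00679), which did not pass with the Y-linked term, without tph2+/+ replicate 2 or without tph2-/- replicate 1 (highest adjusted p 0.181), and -0.63 ± 0.0924 in tph2+/- (0.00412), which did not pass without tph2+/+ replicate 2 (0.0538). Gata6, of mesoderm and endoderm, fell by 0.49 ± 0.0691 in tph2-/- (0.00301) and by 0.55 ± 0.0691 in tph2+/- (0.00179). Gata4 (0.08, adjusted p = 0.654) and Gata5 (-0.14, 0.378) did not pass in tph2-/-, nor did Gata2. Nhlh1, a neuronal relative of Tal1, had 0.367 and 0.439 RPKM in tph2+/+, against 0.199 and 0.404 in the tph2+/- libraries and 2.95 and 3.24 in the tph2-/- libraries. Nhlh1 reached the filter of 1 RPKM only through tph2-/-, where it is high, so its call is partly set by the filter.

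**Figure D4:**
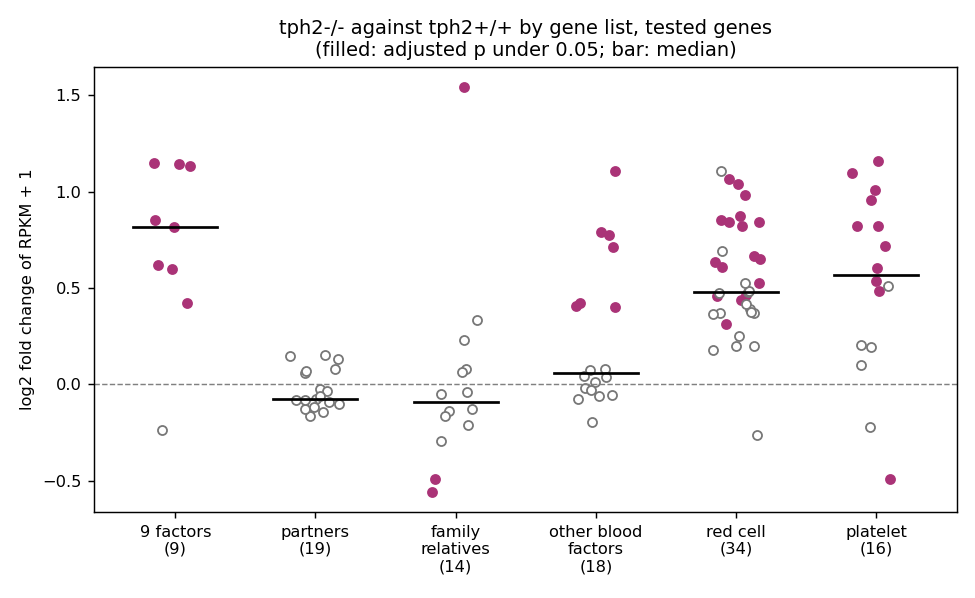
Log2 fold change of RPKM + 1 (vertical axis) in tph2-/- against tph2+/+ for the tested genes of each list, with the number tested under its name and a bar for the median. Filled points passed an adjusted p of 0.05; the 9 factors have a median of 0.82, the 19 partners one of -0.08 with no call.

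Other transcription factors of blood cells were split. In tph2-/- 7 of 18 rose and none fell, and in tph2+/- 6 rose and 1 fell, Meis1, with medians of 0.06 and 0.16. Ikzf1, a lymphoid and stem cell factor, rose by 1.11 ± 0.118 in tph2-/- (limma adjusted p = 0.000743) and 1.00 ± 0.118 in tph2+/- (0.00135), and Myb, of immature progenitors, by 0.77 ± 0.0861 (0.000902) and 0.65 ± 0.0861 (0.00232). Both kept their calls under all 14 alternatives in each comparison. Mecom rose by 0.79 ± 0.148 in tph2-/- (0.0224) and by 1.29 ± 0.148 in tph2+/- (0.00358). Its tph2-/- call was lost without any 1 of the tph2+/+ or tph2-/- libraries (highest adjusted p 0.191), and its tph2+/- call without either tph2+/+ library (highest 0.069). Runx1 (0.08 ± 0.125, adjusted p = 0.703) and Fli1 (-0.06 ± 0.0721, 0.641), which are expressed in both blood and endothelium, did not pass in tph2-/-. Without tph2+/+ replicate 1 or 2, or tph2-/- replicate 1 or 2, the count of risen factors in tph2-/- was 3, 2, 3 and 3. In tph2+/- it was 3 without either tph2+/+ library. In tph2-/- the number called over all tested genes also fell when a tph2+/+ or tph2-/- library was left out. The Meis1 call (-0.26 ± 0.0591, limma adjusted p = 0.0333) was lost under 7 of 14 alternatives, including each tph2+/+ and tph2+/- library left out.

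Red cell genes, a list of markers not chosen as targets of GATA1 or KLF1, rose in part. In tph2-/- 17 of 34 tested genes of a list of 37 were higher and 0 lower, with a median of 0.48, and in tph2+/- 14 were higher and 0 lower, with a median of 0.48. In each comparison 1 of those called averaged under 1 RPKM in tph2+/+. Rhag, of the Rhesus complex, rose by 1.07 ± 0.142 in tph2-/- (limma adjusted p = 0.00381) and Cldn13 by 0.98 ± 0.128 (0.00266). Epor, the erythropoietin receptor gene, went from 5.72 and 7.19 RPKM in tph2+/+ to 10.7 and 12.8 in tph2+/-, then 11.0 and 13.3 in tph2-/- (0.82 ± 0.128, adjusted p = 0.00791). The Epor call was lost without tph2-/- replicate 2, and those of Rhag and Cldn13 without tph2-/- replicate 1. The number of calls in this list changed with the libraries fitted, as it did over all tested genes. Over all tested genes, fewer passed in tph2-/- against tph2+/+ without a tph2+/+ or tph2-/- library. More passed without a tph2+/- library. In tph2-/- 8, 7, 5 and 9 genes passed without tph2+/+ replicate 1, tph2+/+ replicate 2, tph2-/- replicate 1 and tph2-/- replicate 2, and 27 without either tph2+/- library. With the Y-linked term 0 passed in tph2-/- with a median of 0.115, and 13 passed in tph2+/- with a median of 0.324. In tph2+/- against tph2+/+ 4 and 7 passed without tph2+/+ replicate 1 and 2, and 29 without tph2+/- replicate 1.

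Most tested megakaryocyte and platelet genes rose. Of 16 tested genes of a list of 20, 10 were higher and 1 lower in tph2-/-, and 11 higher and 1 lower in tph2+/-, with medians of 0.57 and 0.90. Among those called higher, 2 in tph2-/- and 3 in tph2+/- averaged under 1 RPKM in tph2+/+ and reached the filter only through mutant libraries. Ppbp rose by 1.16 ± 0.0835 in tph2-/- (limma adjusted p = 7.78e-05) and by 1.47 ± 0.0835 in tph2+/- (2.08e-05), and Pf4 by 1.01 ± 0.0599 and 1.30 ± 0.0599 (3.53e-05 and 5.68e-06). Itga2b, the integrin gene that marks megakaryocytes and early blood progenitors, had 2.94 and 3.26 RPKM in tph2+/+, against 6.93 and 7.40 in the tph2+/- libraries and 5.64 and 5.86 in the tph2-/- libraries. Those levels did not overlap between any 2 genotypes, although the mutant genotypes did not differ by the test (-0.27 ± 0.0748, adjusted p = 0.157). Vwf, which endothelium also expresses, was the lower gene, at -0.49 ± 0.0681 in tph2-/- (0.00286) and -0.51 ± 0.0681 in tph2+/- (0.00244). With the Y-linked term 6 platelet genes were called higher and 0 lower in tph2-/-, and 10 higher and 1 lower in tph2+/-. Vwf did not pass in tph2-/- with that term (0.0896).

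Genes with the most similar profile over the 6 libraries were found by the distance between centred log2(RPKM + 1) values, among 12081 of the other tested genes. The search left out 787 genes with names of predicted models or of sequence clones, such as those ending in Rik. Nearest to Gata1 were Fermt3 (distance 0.166), an integrin adaptor of blood cells, Foxf1 (0.181), a factor of gut mesenchyme, Gulo (0.195), an enzyme of liver ascorbate synthesis, the platelet gene Treml1 (0.237), and the coagulation factor gene F10 (0.249). Klf1 was 11th by this measure with a distance of 0.277, and Gata2 was among the farthest with 1.74. Foxf1 had 5.19 and 5.85 RPKM in tph2+/+, against 14.2 and 14.6 in the tph2+/- libraries and 13.7 and 16.3 in the tph2-/- libraries, and only Fermt3 was nearer to Gata1 among the genes compared. Nearest to Tal1 were Rhd (0.081), Malat1 (0.124), Reep6 (0.129) and Fech (0.130). Of these Rhd and Fech are red cell genes. Gata2 had as neighbours Plekha2 (0.135), Mir3063 (0.141), Crb2 (0.152), Myf6 (0.172) and Hoxd8 (0.174), and none of these 5 is a blood cell marker on the lists used here. These distances describe 6 libraries that share genotype and sex.

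Of the 4 lists of other tissues, only the hepatoblast list had most tested genes called higher in both mutant genotypes, as the 9 factors had. The summed level of the 9 genes was 58.6 and 61.5 RPKM in tph2+/+, against 96.4 and 114 in the tph2+/- libraries and 101 and 108 in the tph2-/- libraries. The summed level of 17 hepatoblast markers was 154 and 160, 434 and 652, and 631 and 606 in the same order, with 15 of 16 tested genes higher in each mutant genotype and none of the 17 at 0 in a genotype. Of those 15, 6 averaged under 1 RPKM in tph2+/+ and reached the filter only through mutant libraries, so the count is partly set by the filter. Hepatoblasts surround red cell precursors in the fetal liver, and Afp, their classic marker, had a mean of 22.6 RPKM in tph2+/+, 174 in tph2+/- and 211 in tph2-/-. Macrophage markers summed to 40.9 in each tph2+/+ library, 44.1 and 51.8 for tph2+/-, and 51.6 and 52.3 in tph2-/-, with 2 of 9 tested genes higher in tph2-/- and 0 in tph2+/-. The tph2-/- count was 1 without tph2+/+ replicate 1 and 0 without tph2+/+ replicate 2 or either tph2-/- library. Endothelial markers summed to 176 and 183, 163 and 166, and 165 and 170, with 0 of 15 called in either comparison by limma (2 and 4, or 13.3% and 26.7%, at an unadjusted p under 0.05, against 26.8% and 20.2% of all tested genes). A list of neural tube and V2 interneuron markers, cells that also use Gata2, Gata3 and Tal1, summed to 19.2 and 19.0, 19.4 and 22.4, and 58.0 and 64.3, and Vsx1 was at 0 in tph2+/+ and tph2+/-. The part of any of these tissues in the change of the 9 factors was not tested. Between the mutant genotypes 4 of its 5 tested genes were higher in tph2-/-, the general neural genes Sox2, Elavl3, Tubb3 and Dcx, and none of the 9 factors was. Elavl3 reached the filter only through tph2-/-. Gata3, the tested gene that V2 neurons use, was not called there (0.07, limma adjusted p = 0.76).

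**Figure D5:**
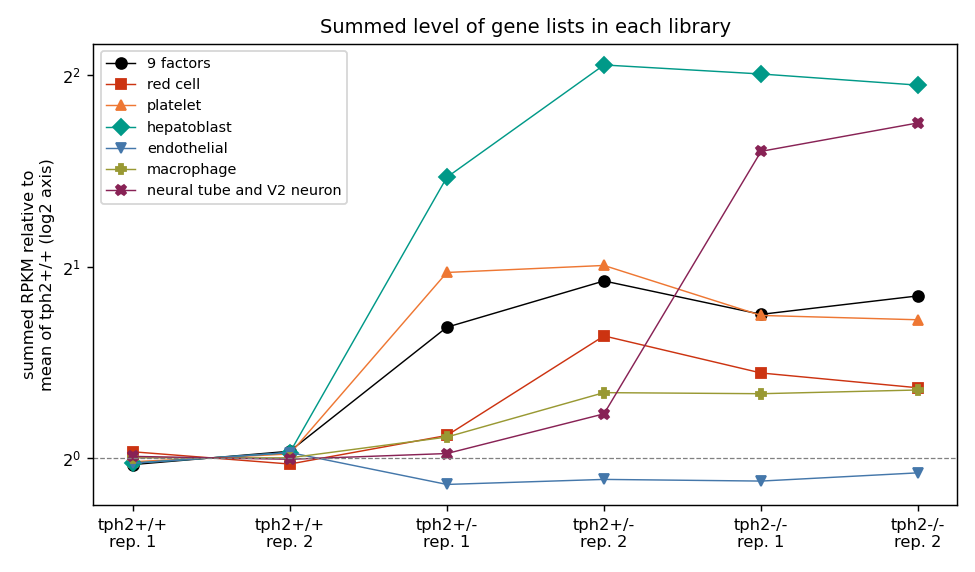
Summed RPKM of each gene list in each library, relative to the mean of the 2 tph2+/+ libraries (vertical axis, log2 scale). The 9 factors and the red cell, platelet, hepatoblast and macrophage lists are higher in all 4 mutant libraries. Among these libraries the 9 factors and the red cell, hepatoblast and macrophage lists are lowest in tph2+/- replicate 1. The platelet list is lowest in tph2-/- replicate 2. The neural list is higher mainly in the 2 tph2-/- libraries, and the endothelial list is slightly lower in all 4.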

How the data were processed

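The authors deposited RPKM values for 6 libraries, 1 column each, matched to samples by a number in their descriptions. A TruSeq kit that does not mark strand and paired 150 bp reads were used, per the labels' protocols. Per the submitters' processing notes, TopHat2 2.0.9, HTSeq 0.5.3p9 and GRCm38 were used. The gene models are not given in the sources used here. Of 56826 rows, 33353 carried clone identifiers and 27 carried dates, and both kinds were left out.

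The fixed design named limma for normalized values. The fit took log2(RPKM + 1) of genes averaging 1 RPKM or more in limma 3.58.1 (R 4.3.3), over 3 genotype groups, with lmFit and eBayes (trend and robust) and 3 residual degrees of freedom. The threshold was a Benjamini-Hochberg adjusted p of 0.05. The procedure was tested on simulated data. Depth was estimated from the steps between low values of genes with 1 annotated transcript, taking the usual smallest step as 2 reads. Coordinates came from GENCODE M21 (GRCm38). Named genes were the 9 factors, up to 3 higher and 3 lower calls per list, 10 preset genes and the 5 nearest neighbours of Gata1, Gata2 and Tal1. Some genes that this rule names are not reported here. The factors, lists and rules were chosen with earlier results of these data known. Replicate numbers are shared between genotypes, but no label says that they mark a litter, so they were not used as pairs. Alternatives changed the pseudocount, the filter, the scaling, the libraries fitted, the moderation of the spread and the covariates.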

Additional observations from a re-analysis of the deposited data

How the results depend on the processing

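The calls of Gata1, Klf1, Gfi1b, Lmo2 and Lyl1 against tph2+/+ held under all 14 alternatives in both comparisons, and that of Nfe2 in tph2+/-. Zfpm1 lost its call under 7 alternatives in tph2-/- and 11 in tph2+/-, Tal1 under 5 and 6, and Nfe2 under 2 in tph2-/-. The Y-linked term took the number of genes past the threshold from 1241 to 400 in tph2-/- against tph2+/+ and from 166 to 264 in tph2-/- against tph2+/-, turned Gata2 to 0.0727 in the first, and turned Gfi1b to -0.0062 and Zfpm1 to -0.1169 in the second, where quantile normalization turned Klf1 to 0.0061. Leaving out 1 library gave 383 to 1530 genes in tph2-/- against tph2+/+, 325 to 805 (main 782) in tph2+/- against tph2+/+ and 57 to 288 between the mutant genotypes. Between the mutant genotypes the log2 fold change then ran from -0.1945 to 0.0701 for Gata1, -0.0141 to 0.2707 for Gata2, -0.1844 to 0.1726 for Klf1, -0.2225 to 0.075 for Nfe2, -0.2188 to 0.1982 for Tal1, -0.1228 to 0.0972 for Lmo2 and -0.1141 to 0.1524 for Zfpm1. With the replicate number as a block 1649, 908 and 220 genes passed in the 3 comparisons and no call of the 9 factors changed. The deviations of same-numbered libraries correlated at 0.033 to 0.170, and no label ties the numbers to a litter. Causes of these shifts were not tested. With 2 libraries per genotype, small differences were not detectable.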

Other observations

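Mast cells are another lineage that uses Gata2. Of 10 mast cell markers only Kit, the stem cell factor receptor gene of progenitors, germ cells and mast cells, passed the filter on low values. Kit had 5.54 and 5.56 RPKM in tph2+/+, against 6.86 and 6.87 in the tph2+/- libraries and 7.67 and 7.28 in the tph2-/- libraries. It rose by 0.37 ± 0.0638 in tph2-/- (limma adjusted p = 0.00806) and by 0.26 ± 0.0638 in tph2+/- (0.045), and these calls were lost under 4 and 11 of 14 alternatives. Fcer1a, Mcpt4 and Tpsb2, which define mast cells, were at 0 in all 6 libraries. Hdc, which makes histamine, had 0.494 and 0.516 RPKM in tph2+/+, against 0.771 and 0.741 in the tph2+/- libraries and 0.966 and 1.02 in the tph2-/- libraries. Cpa3, a mast cell protease gene, lay between 0.0150 and 0.455 RPKM, highest in tph2+/- replicate 2. Neither gene was tested.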
